A study of Mus musculus with 4 samples.

Results

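Broad Pol II domains were the peaks of at least 1000 bp on chromosomes 1 to 19 and X in the list of the OSS_128167 library. They were chosen by their measured length, which is a value of that list itself. There were 741 of them among the 40656 OSS_128167 peaks on these chromosomes (1.82%), and among the 42442 peaks of both lists of the series. The lists come from chromatin immunoprecipitation of RNA polymerase II (Pol II) followed by sequencing, in mouse primary osteoblasts. Per the labels, the cells came from young mice, grew out of minced bone as mesenchymal stem cells and spent 3 days in osteogenic medium. The OSS_128167 group is 1 Pol II library of osteoblasts treated with OSS_128167, an inhibitor of the deacylase SIRT6, and the untreated group is 1 Pol II library titled WT osteoblasts. Each group also has 1 input library that was not analysed here. The treatment field names OSS_128167 for all 4 samples, so the untreated group rests on its title. The title of the treated sample does not say WT, and its deposited list is named for SIRT6. Strain, dose and duration are not given in the labels. With 1 library per condition there is no replicate, so nothing between conditions was tested, and the depth of each library is unknown because the lists hold no read totals.

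RNA polymerase II transcribes protein-coding genes, most long non-coding RNAs, the host genes of microRNAs and most spliceosomal small nuclear RNAs. It gathers near the start of a gene, where it often pauses, then elongates through the body, and usually goes on past the cleavage site at the 3′ end before it leaves the template. In Pol II ChIP-seq, paused promoters commonly appear as narrow peaks and heavily transcribed genes as long intervals. In osteoblasts, the genes of type I collagen, Col1a1 and Col1a2, are classic examples of very active genes, since this collagen is the main protein of bone matrix.

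The start of a domain near a gene start is best seen in the sequence itself. The following 250 bases end at the base before the annotated gene start and are written 5′ to 3′ on the strand of the gene, from RefSeq promoter windows of GRCm38.p6, the assembly behind mm10. They are shown for 6 genes whose domain begins just before the gene: Col1a2 (chr6:4505368-4505617, plus strand), Ccn1 (chr3:145649986-145650235, minus), Fos (chr12:85473640-85473889, plus), Junb (chr8:84978749-84978998, minus), Btg1 (chr10:96616751-96617000, plus) and Id3 (chr4:136143572-136143821, plus). Capitals mark the bases that lie under a broad domain, and lower case the bases before it.
Col1a2: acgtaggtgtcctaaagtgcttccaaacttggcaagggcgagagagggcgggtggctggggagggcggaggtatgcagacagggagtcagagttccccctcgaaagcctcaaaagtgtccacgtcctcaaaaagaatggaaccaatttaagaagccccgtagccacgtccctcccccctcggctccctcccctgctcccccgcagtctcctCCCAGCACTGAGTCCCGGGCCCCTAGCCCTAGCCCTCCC
Ccn1: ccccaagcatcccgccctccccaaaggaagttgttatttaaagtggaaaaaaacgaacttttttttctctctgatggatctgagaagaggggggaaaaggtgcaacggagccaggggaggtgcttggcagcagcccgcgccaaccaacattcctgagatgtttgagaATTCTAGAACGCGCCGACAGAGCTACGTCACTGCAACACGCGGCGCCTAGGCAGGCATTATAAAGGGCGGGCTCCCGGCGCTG
Fos: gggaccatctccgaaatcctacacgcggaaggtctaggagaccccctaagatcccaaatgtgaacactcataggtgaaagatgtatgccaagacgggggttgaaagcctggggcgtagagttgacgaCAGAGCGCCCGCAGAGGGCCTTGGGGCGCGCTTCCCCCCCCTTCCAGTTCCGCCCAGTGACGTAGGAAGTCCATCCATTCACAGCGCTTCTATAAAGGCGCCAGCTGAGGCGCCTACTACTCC
Junb: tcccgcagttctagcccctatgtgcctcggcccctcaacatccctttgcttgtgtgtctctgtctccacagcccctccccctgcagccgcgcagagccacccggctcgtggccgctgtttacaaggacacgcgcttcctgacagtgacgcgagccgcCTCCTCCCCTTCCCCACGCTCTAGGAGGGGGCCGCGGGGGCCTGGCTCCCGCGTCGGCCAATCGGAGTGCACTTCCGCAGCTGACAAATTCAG
Btg1: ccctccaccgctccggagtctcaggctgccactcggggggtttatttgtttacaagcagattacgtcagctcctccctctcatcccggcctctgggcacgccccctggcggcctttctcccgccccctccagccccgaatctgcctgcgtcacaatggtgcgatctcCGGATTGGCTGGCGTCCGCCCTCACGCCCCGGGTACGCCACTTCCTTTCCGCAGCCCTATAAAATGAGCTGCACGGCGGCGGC
Id3: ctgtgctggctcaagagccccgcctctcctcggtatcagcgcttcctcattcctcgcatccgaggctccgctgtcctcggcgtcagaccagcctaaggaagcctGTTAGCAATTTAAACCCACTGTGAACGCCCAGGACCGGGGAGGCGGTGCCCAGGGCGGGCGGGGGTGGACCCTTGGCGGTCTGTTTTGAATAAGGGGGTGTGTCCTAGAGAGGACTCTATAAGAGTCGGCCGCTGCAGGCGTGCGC
The domain began 39 bases before the start of Col1a2, 83 before Ccn1, 123 before Fos, 93 before Junb, 83 before Btg1 and 146 before Id3. These 6 were picked for that short distance and do not stand for all genes, whose upstream edges are counted with the spill further on.

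Histone genes carried a second sequence feature. Next to each other are the window of H2ac21 (chr3:96219635-96219884, plus strand), the 173 bases between the divergent genes H2bc7 and H2ac7 (chr13:23574208-23574380, plus strand) and the window of H3c14 (chr3:96246435-96246684, plus strand), the gene under the domain of highest fold. Capitals mark TATAAA, the TATA box core, and CCAAT, the core bound by the factor NF-Y, each on either strand.
H2ac21: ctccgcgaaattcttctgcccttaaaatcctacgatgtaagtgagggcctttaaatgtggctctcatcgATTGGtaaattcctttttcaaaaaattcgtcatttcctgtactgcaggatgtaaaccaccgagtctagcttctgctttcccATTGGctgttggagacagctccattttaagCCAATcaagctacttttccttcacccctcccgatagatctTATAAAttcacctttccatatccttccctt
H2bc7-H2ac7 interval: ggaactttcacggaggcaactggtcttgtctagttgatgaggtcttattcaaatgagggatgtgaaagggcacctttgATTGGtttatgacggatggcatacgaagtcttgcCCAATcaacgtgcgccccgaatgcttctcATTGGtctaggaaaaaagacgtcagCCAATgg
H3c14: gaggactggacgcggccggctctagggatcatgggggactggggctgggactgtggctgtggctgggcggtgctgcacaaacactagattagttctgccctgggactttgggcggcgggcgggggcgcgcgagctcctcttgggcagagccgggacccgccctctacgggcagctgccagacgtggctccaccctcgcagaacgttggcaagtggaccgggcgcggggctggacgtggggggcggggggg
H2ac21 held 1 TATAAA and 3 CCAAT, the H2bc7 to H2ac7 interval held 0 TATAAA and 4 CCAAT, and the 250 bases before H3c14 held neither. The next 50 bases of the H3c14 window, which are not printed, hold a CCAAT at position 280, counted from 1 at the 5′ end of the window. Outside the printed H2bc7 to H2ac7 interval, the overlapping windows of both genes share 1 TATAAA site. It is at position 281 of the H2ac7 window and, on the other strand, at position 42 of the H2bc7 window. Over whole windows, from 250 bases before to 50 after the start, 55 protein-coding windows of 54 genes lay entirely inside a domain. Of these, 19 (34.5%) held TATAAA and 33 (60%) held CCAAT, against 12.7% and 38.5% of all 21045 protein-coding windows. The 25 windows of histone genes account for most of that, with TATAAA in 15 (60%) and CCAAT in 23 (92.0%). Among the other 30, TATAAA stood in 4 (13.3%) and CCAAT in 10 (33.3%), close to the shares of all windows. The CRE motif TGACGTCA, which is its own reverse complement, stood in 4 of the 55 windows (7.27%) against 2.26% of all, and the CArG box, the site of serum response factor, in 3 (5.45%) against 1.54%. Histone genes held 3 of the 4 windows with the CRE motif and all 3 with a CArG box. Windows of divergent genes overlap and share sites, so the counts of windows above take in some sites more than once. Of 60 distinct CCAAT sites in the 55 windows, 22 lay in the windows of more than 1 gene, and of 19 TATAAA sites 3 did. The 3 CArG windows hold 2 distinct sites, and 1 CRE site counts for a pair of windows. Each motif was counted on its own, so letters that neighbouring matches share count for both. A match describes letters in a window and is not evidence that a factor was bound.

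Of the 1005 hairpins in the RefSeq sequence table, 7 lay wholly inside a domain, while 8 of the 1228 microRNA genes in the larger RefSeq gene table were covered in full. The mature sequences of 3 well-studied microRNAs, at the Vmp1 and let-7 loci described further on, are shown with the seed (bases 2 to 8) in capitals. miR-21a-5p lies at chr11:86584120-86584141 on the minus strand, let-7c-5p at chr15:85706616-85706637 and let-7b-5p at chr15:85707325-85707346 on the plus strand.
miR-21a-5p: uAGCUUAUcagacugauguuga
let-7c-5p: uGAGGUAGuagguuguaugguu
let-7b-5p: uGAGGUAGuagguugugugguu
The let-7 pair shares the seed GAGGUAG, so both recognise the same target letters, while miR-21a-5p has the seed AGCUUAU.

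The longest domains lay on matrix genes and on nuclear long non-coding RNAs. In mm10, Col1a2, a chain of type I collagen, lay under the longest of all, 29800 bp at chr6:4514613-4544412, with a fold enrichment of 9.03. Fn1, which encodes fibronectin, had a domain of 21359 bp (chr1:71630710-71652068, fold 7.23), and Col1a1, the other chain of type I collagen, one of 16389 bp (chr11:94936124-94952512, fold 9.42). Fold, pileup (the height of stacked fragments) and FDR were set by the authors for each peak and serve here only to describe and rank the peaks of a list. Next in length came Mir100hg, the host of a cluster that includes miR-100, with 15066 bp, and Neat1, the scaffold of paraspeckles, with 14349 bp. Both are long non-coding RNAs, and so is Malat1, with 9512 bp at a pileup of 143, the greatest height of any domain. The remaining domains among the 15 longest lay on the growth factor receptor gene Fgfr2 (12778 bp), Actb with Fbxl18 (11859 bp), Fgf7 with the overlapping Fam227b (10604 bp), the YAP-binding Amotl2 (9240 bp), Actg1 (8699 bp), the antiproliferative Btg1 (8001 bp), Vmp1 with Mir21a (7945 bp), the snoRNA host 2410006H16Rik with Lrrc75a (7655 bp) and H3f3b (7528 bp).

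Most domains were far shorter. Their median length was 1513 bp (quartiles 1138 and 2103 bp), and 364 domains were under 1500 bp while 36 reached 5000 bp. The domains covered 1.51 Mb, 10.7% of the 14.1 Mb under all OSS_128167 peaks on these chromosomes. Median fold was 4.31 in domains and 2.87 in the 39915 shorter peaks, and median pileup 16 and 8. An FDR of at most 0.05 was listed for 643 domains (86.8%) and for 14.8% of shorter peaks. These measures come from the same list as the length, so they describe the domains and support nothing further. Across the 741 domains, Spearman's rho was 0.430 between length and fold and 0.543 between length and pileup. The other 98 domains had an FDR above 0.05 and a median length of 1156 bp, and the longest of them, 3900 bp at the convergent genes Fth1 and Best1, had a fold of 1.47 (FDR 0.855) at a pileup of 38. Fth1 encodes the ferritin heavy chain. Malat1 also had a low fold for its height, 3.03 at a pileup of 143, but an FDR of 2.55e-25. In all, 9 domains combined a pileup of at least 30 with a fold under 3.5.

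**Figure D1:**
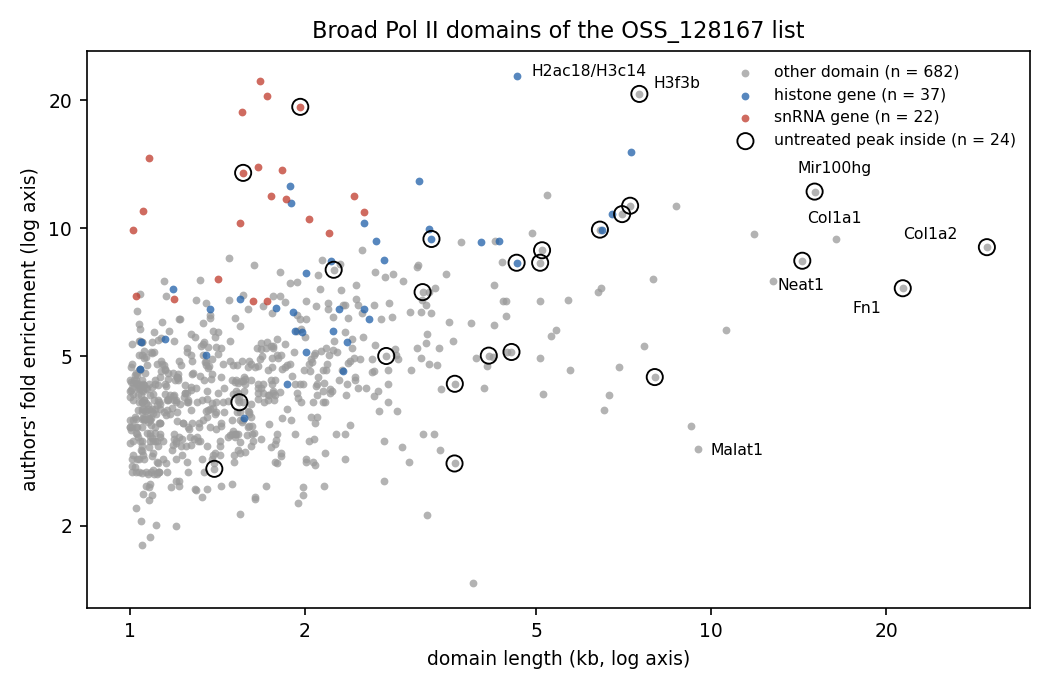
Length (x axis, kb, log scale) against the authors' fold enrichment (y axis, log scale) for the 741 broad domains, each a point. Domains over snRNA genes (n = 22) sit at 1015 to 2527 bp with folds of 6.73 and more, histone domains (n = 37) spread from 1042 to 7289 bp, and circles mark the 24 domains with an untreated peak inside.

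The folds ranked different genes from the lengths. Of the 15 highest folds, 8 were on domains over small nuclear RNA (snRNA) genes and 4 over genes of the histone list. The highest was 22.8, on the 4628 bp domain over H2ac18 and H3c14 (chr3:96245966-96250593, FDR 2.70e-109). Rnu5g, a gene of the U5 spliceosomal RNA, followed with 22.2, and H3f3b, a gene of the replication-independent histone variant H3.3, with 20.7. Gm25099, another snRNA gene, had 20.5. The U1 gene Rnu1a1 had 19.3 and the U3 gene Rnu3b4 had 18.8, both inside Tex14. The rest of the 15 were H3c15 with H2ac19 (15.1), Rnu3b1 (14.6), Gm24265 and Gm24407 beside Sirt4 (13.9), Rnu3b2 (13.7), Gm22513 (13.5), H2ac24 with H4c18 (12.9), H1f3 (12.6), Mir100hg (12.2) and Gys1 with Ftl1, the ferritin light chain (fold 12). Histone and U RNA genes have near-identical copies, and how reads with several matches were placed is not given in the sources used here, so reads may be split or shared between copies.

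Protein-coding genes lay under 497 domains (67.1%, exact 95% interval 63.6 to 70.4%), against 45.4% of shorter peaks. Long non-coding RNA genes without a protein-coding gene lay under 39 (5.26%, against 5.75%), small RNA genes alone under 12 (1.62%, against 0.489%) and pseudogenes alone under 4 (0.540%, against 1.09%). A further 56 domains (7.56%, against 3.59%) touched no gene but lay within 1000 bp of one, and 133 (17.9%, against 43.7%) lay farther from any gene. Domains thus fell on annotated genes more often than short peaks did. A longer interval touches a gene more easily, and by base pairs the gap was smaller, with 35.6% of domain sequence outside genes against 47.3% of short-peak sequence. Intervals cover counting only, because neighbouring peaks share genes and are not independent. One gene lay under 436 domains, a pair under 94 and 3 or more under 22. The Snhg1 domain held the most, 9 genes, of which 8 were small nucleolar RNA (snoRNA) genes inside Snhg1.

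By gene, 520 of the 49554 annotated on these chromosomes met a domain by at least 1 bp. They included 393 of 21631 protein-coding genes (1.82%), whereas 34.9% had an OSS_128167 peak of any length. The same table holds 43 of 12697 long non-coding RNA genes (0.339%), 43 of 1340 snoRNA genes (3.21%), 23 of 1003 snRNA genes (2.29%) and 9 of 1228 microRNA genes (0.733%). Long non-coding RNA genes were thus met less often than protein-coding genes, and snoRNA genes more often. Single members came from rarer classes, Mascrna, the small RNA cut from the Malat1 transcript, and Scarna2, a guide RNA of Cajal bodies. Of 9852 pseudogenes 7 were met (0.0711%), among them Gm8586 (fold 4.55), Rpl21-ps9 (fold 3.69), Gm13015 (fold 6.47) and LOC115487281 (fold 3.95), each covered in full.

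How much of a gene was covered depended on its length. The median share over the 393 protein-coding genes was 13.8% (quartiles 4.48 and 51.3%), and 99 were covered over at least 50%, which is 25.2% of the 393 and 0.458% of all protein-coding genes. Full cover was seen in 54. The median share was 100% for genes under 2000 bp, 42.3% from 2000 to 5000 bp, 19.6% from 5000 to 10000 bp and 0.995% from 100000 bp up. The length covered varied little, with a median of 488 bp in the shortest of these classes and 1308 to 1965 bp in the other classes. Counting all OSS_128167 peaks instead of domains raised the median share of the same 393 genes to 26.3%.

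A few long genes stood apart from that trend. Btg1 was the only gene of at least 5000 bp covered in full, under a single domain. Col1a1 (16819 bp) was covered over 98.2% by 2 domains and Col1a2 (35926 bp) over 97.4% by 4. Shorter peaks added nothing to either collagen gene. Amotl2 followed with 78.0%, then the intermediate filament gene Vim with 76.7%, the ribosomal Rpl3 with 76.6%, the helicase gene Eif4a2 with 76.2% and Zfp36l1, an mRNA decay factor, with 75%. Below these came the bromodomain gene Brd2 (61.8%), the stress factor gene Ddit3 (61.4%), Eif4a1 (61.2%) and the RNA helicase gene Ddx5 (61.1%).

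**Figure D2:**
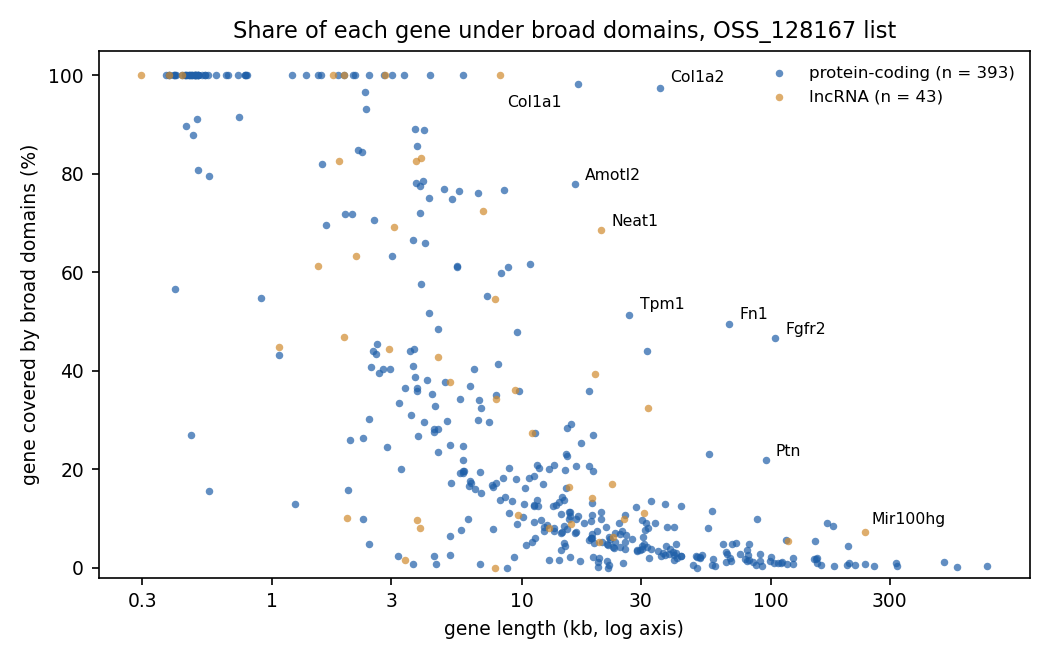
Share of each gene under broad domains (y axis, %) against gene length (x axis, kb, log scale) for protein-coding (n = 393) and long non-coding RNA genes (n = 43), each a point. Col1a1 and Col1a2 lie near the top at lengths where most genes lie under 20%, and Fgfr2 and Fn1 keep close to 50% at still greater lengths.

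Some genes were covered in pieces. At least 2 domains lay on 83 protein-coding genes, at least 3 on 29 and at least 5 on 8. Fgfr2, 104358 bp long, carried 21 domains that covered 46.7% of it, and all its 58 peaks covered 64.4%. Its longest domain was 12778 bp, at chr7:130251616-130264393, the one nearest the 5′ boundary of this minus-strand gene, and the other 20 were 1024 to 4113 bp. Ptn, which encodes the growth factor pleiotrophin, had 10 domains (21.9%), Fn1 and Cald1, the gene of caldesmon, 9 each (49.6% and 8.46%), Tpm1, the gene of tropomyosin 1, 8 (51.3%), Postn, which encodes the matrix protein periostin, 7 (44.0%) and Ahnak 5 (9.92%). Tex14 also had 5 domains (5.41%), and each of them lay on an snRNA gene inside it, Rnu1a1 or one of the 4 Rnu3b genes.

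The gene groups met by domains were led by replication-dependent histones. Of 67 genes in that list, 53 lay under a domain (79.1%, interval 67.4 to 88.1%), against 1.82% of all protein-coding genes, and 48 were covered over at least 50%. The list was drawn by symbol and also takes in testis and X-linked variants such as H2ab1 and H2ac1, which had no peak. The 53 genes lay under 37 domains, 32 on chromosome 13 and 5 on chromosome 3, where the main histone clusters are. These domains had a median length of 2237 bp and a median fold of 6.83, and 18 of them held at least 2 histone genes. Among those covered in full, H1f2 had a domain fold of 10.8, H1f3 of 12.6, H1f4 of 9.27, H1f5 of 5.72, H2ac13 of 6.47 and H2ac15 of 9.34. H1 genes encode linker histones and H2ac genes encode H2A, a histone of the nucleosome core. Without histone domains, chromosome 13 would have had 8 domains in place of 40, and 1.20% of its 669 peaks would have been broad in place of 5.98%.

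Cytoskeleton genes came next, with 11 of 18 members (61.1%). Actg1, cytoplasmic gamma actin, was covered in full with a fold of 11.3, and Actb, beta actin, over 76.9% with a fold of 9.71. Vim reached 76.7%, Tuba1a 66.6%, Myl6 63.3% and Tpm1 51.3%. Of 25 immediate early genes, which serum and growth signals induce within minutes, 13 (52%) had a domain and 8 were covered over at least 50%. Fos and Junb, subunits of AP-1, were covered in full with folds of 7.24 and 9.76. Ccn1, Ier2, Ier3, Btg2 and Zfp36 were likewise covered in full, with folds of 11.3, 9.93, 6.59, 7.09 and 4.15. Jun, Egr2, Klf4 and Dusp1 had shorter peaks but no domain, so the group was not uniform.

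Genes of RNA processing and protein synthesis were met in part. Of 18 SR splicing and RNA-binding genes 8 (44.4%) had a domain, with Srsf2 at 78.1%, Ddx5 at 61.1%, Srsf7 at 55.2%, Hnrnpa2b1 at 48.0%, Srsf3 at 18.3% and Hnrnpu at 9.04%. Ribosomal protein genes had 13 of 55 (23.6%), led by Rps2 (85.6%), Rps12 (84.9%), Rpl3 (76.6%), Rpl10a (70.7%), Rpl7a (45.4%) and Rpl41 (43.3%). Of 18 translation factor genes 5 (27.8%) were met, namely Eif1 (100%), Eif4a2 (76.2%), Eif4a1 (61.2%), Eif4g2 (16.3%) and Ncl (4.97%). Rpl32 shows the weak end of the range, with 33.5% covered at a fold of 1.88 and an FDR of 0.696. Glycolysis had 2 of 19, Gapdh (48.5%) and Ldha (12.5%), with an interval of 1.30 to 33.1% that takes in the 1.82% of all protein-coding genes.

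Matrix and osteoblast genes were met unevenly. Of 26 extracellular matrix genes 9 (34.6%) had a domain: Col1a1 and Col1a2, Fn1 and Postn as above, then Thbs1 (28.5%), Serpinh1, the collagen chaperone (17.3%), Col3a1 (8.35%), Sparc (5.30%) and Col5a1 (0.992%). Of 25 osteoblast genes 6 (24.0%) had one. Besides the collagens, Postn and Sparc, they were Atf4 (96.6%) and Runx2, the master regulator of the lineage, whose 2 domains covered 1.07% of its 318811 bp at an FDR of 0.101 or higher. Alpl, Bglap, Ibsp and Spp1, textbook markers of the maturing osteoblast, had no OSS_128167 peak of any length, and Sp7 had 2 short ones. Among the markers of the labelled cell type, domains lay on both type I collagen genes and not on those late markers. Of all protein-coding genes, 1.82% had a domain and 34.9% a peak of any length, so the lack at those late markers is near the background. Most matrix genes also lacked a domain, among them Col6a1, Col5a2 and Col12a1 with short peaks only and Dcn, Lum and Lox with no peak. Stromal progenitor genes had 4 of 20 (Vim 76.7%, Acta2 22.8%, Prrx1 4.88% and Cd44 1.49%).

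Lists of other cell types held hardly any domain, which is near the background for lists this small. The chondrocyte, adipocyte, osteoclast, endothelial, blood cell, skeletal muscle, neuron and hepatocyte lists had 0 members with a domain. They have 10 or 12 members, with intervals that reach 30.8% and 26.5%, against 1.82% of all protein-coding genes. Peaks of any length lay on 7 of 12 neuron and 6 of 10 endothelial genes. They lay on 0 of 10 adipocyte, 1 of 12 blood cell and 2 to 4 of 10 genes in the other lists, against 34.9% of all protein-coding genes. The macrophage list had 1 of 17, Cd68, whose domain of 2442 bp runs across the space to Eif4a1, the next gene upstream on the same strand, and into the 3′ end of it. Ptprc and Itgam, defining markers of blood-derived cells, had 1 short peak each, Adgre1 had 3, and Csf1r, Cd14, C1qa and Lyz2 had none. Efferocytosis genes had 2 of 30, Thbs1 and Anxa1 (25.3%), p53 and senescence genes 3 of 18, Btg2, Cdkn1a (35.9%) and Plk2 (21.9%), and stress response genes 3 of 22, Atf4, Ddit3 and Hspa5 (27.7%). The TGF-beta and BMP list had 1 of 20, Id3, a BMP-induced inhibitor of bHLH factors, covered in full. Pol II pausing and elongation genes had 2 of 18, Hexim1 (36.6%) and Polr2a, the largest Pol II subunit (9.21%), and cyclins 0 of 18. The cyclin count is also near the 1.82% of all protein-coding genes, with an interval that reaches 18.5%. Of 7 sirtuin genes only Sirt4 met a domain (8.33%), the one over 2 snRNA genes at its 5′ boundary, and Sirt6 had no OSS_128167 peak. The macrophage, efferocytosis, TGF-beta and BMP, pausing and elongation, and sirtuin counts have intervals that take in 1.82%, so each is near the background.

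**Figure D3:**
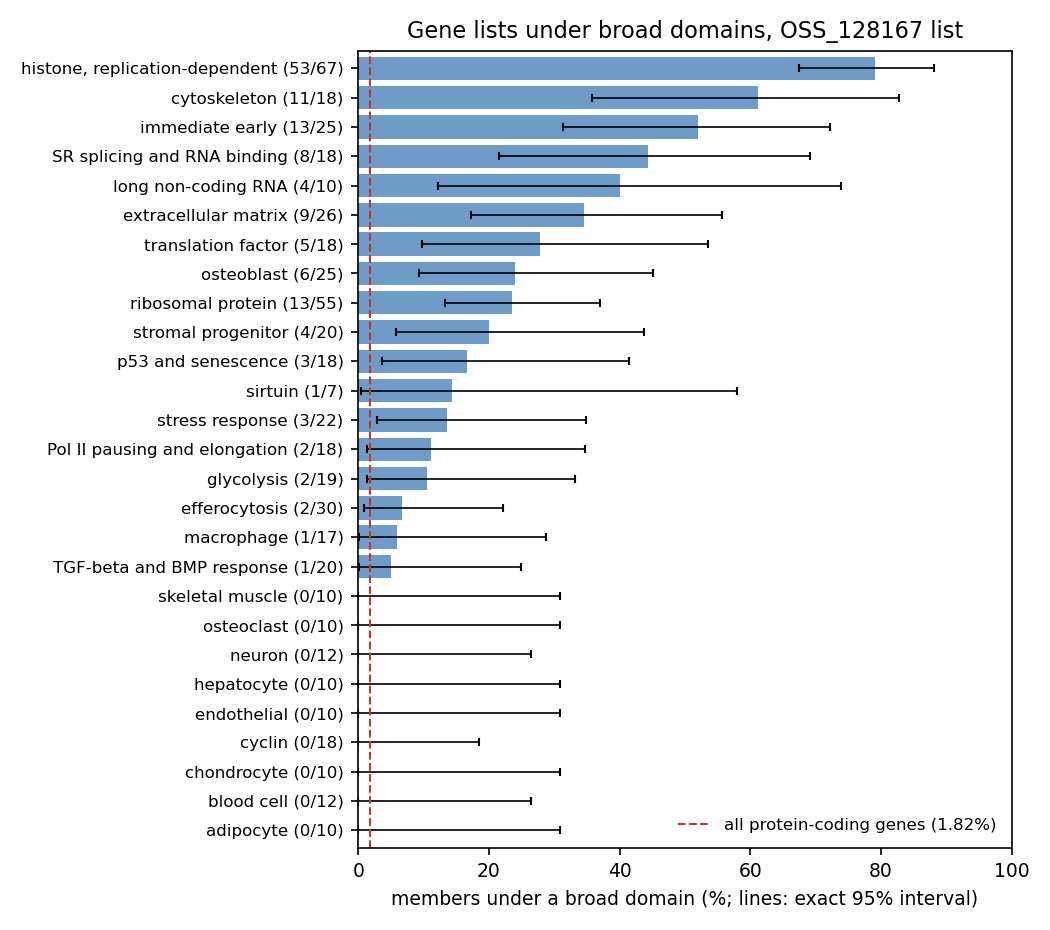
Share of each gene list with at least 1 member base under a broad domain (x axis, %), as bars with exact 95% intervals for counting and, in brackets, members met and members annotated. Histone genes reach 79.1%, while 9 lists are at 0; the dashed line is the 1.82% of all protein-coding genes.

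Among long non-coding RNAs of the chosen list, 4 of 10 had a domain, against 0.339% of all long non-coding RNA genes. They were Snhg1 (100%), Gas5 (83.2%), Malat1 (72.4%) and Neat1 (68.6%). H19, Kcnq1ot1 and Snhg12 had shorter peaks only, and Meg3, Mir17hg and Xist none. Over the whole biotype, Gm38733 next to Actb, 2410006H16Rik, Gm36220 and Snhg9 were among the 7 genes covered in full. Mir100hg was covered over 7.28% of its 238660 bp, by a pair of domains of which the longer has 15066 bp.

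The snoRNA genes were met through their hosts. Their 43 members lay under 19 domains, and all 19 domains also held a protein-coding or long non-coding RNA gene. The hosts or overlapping genes include Gas5, Snhg1, Snhg3, Snhg5, Zfas1, Rps2, Rps12, Rpl3, Rpl7a, Eif4a1, Eif4a2 and Nop56, several of them genes of ribosome production or translation. Snord43 and LOC115488570 in the Rpl3 domain had a domain fold of 8.32, and LOC115489078 and LOC115489081 in the Snhg1 domain one of 8.30. All but 1 of the 43 were covered in full, at a median length of 75 bp.

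The snRNA genes had domains of their own kind. The 23 genes lay under 22 domains of 1015 to 2527 bp, with a median length of 1670 bp and a median fold of 11.3, none below 6.73. They include Rnu5g, Rnu1a1, Rnu11 and Rnu12, genes of U5, U1, U11 and U12 spliceosomal RNAs, and Rnu3a and Rnu3b1 to Rnu3b4 of U3, which the table classes as snRNA although U3 acts in the nucleolus. The genes themselves are 108 to 218 bp long, so most of each domain lay outside them. In the 21 domains with a single snRNA gene, the domain extended lopsidedly. The shorter side beyond the gene had a median of 154 bp and at most 221 bp, and the longer side a median of 1355 bp (686 to 2265 bp). At Rnu11, 2265 bp lay on the side of lower coordinates and 154 bp on the other, and at Rnu3a 144 bp on the lower side and 2077 bp on the higher. The strand of these genes is not in the table used, so the long side cannot be named upstream or downstream.

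Spill, the part of a domain that runs past a gene boundary, was found on 192 domains (25.9%, interval 22.8 to 29.2%), while 360 (48.6%) lay wholly inside genes and 189 (25.5%) touched none. The partly outside domains had a median of 985 bp outside genes and a maximum of 6044 bp. Direction could be read for the 336 of 393 protein-coding genes whose strand the promoter table gives. Their 3′ boundary lay under a domain in 156 (46.4%, interval 41.0 to 51.9%) and their 5′ boundary in 104 (31.0%, 26.0 to 36.2%). Both ends were under a domain in 59 and neither in 135.

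The overhang was long downstream and short upstream. Median spill was 1340 bp past the 3′ boundary and 192 bp before the 5′ boundary, and it reached 1000 bp in 62.2% and 26.9% of the genes concerned. The domain edge lay within 250 bp of the 5′ boundary in 55 of 104 genes (52.9%), but within 250 bp of the 3′ boundary in 12 of 156 (7.69%). Of the 59 genes with both ends under a domain, 45 (76.3%) had the longer spill downstream. Without the histone list, whose tightly packed genes spill into each other, it was 19 of 20 (95%), with medians of 2356 bp downstream and 91 bp upstream. The gene boundaries used are the outermost of each gene, so a gene whose main start or end lies inside them can show less spill than its transcripts do.

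**Figure D4:**
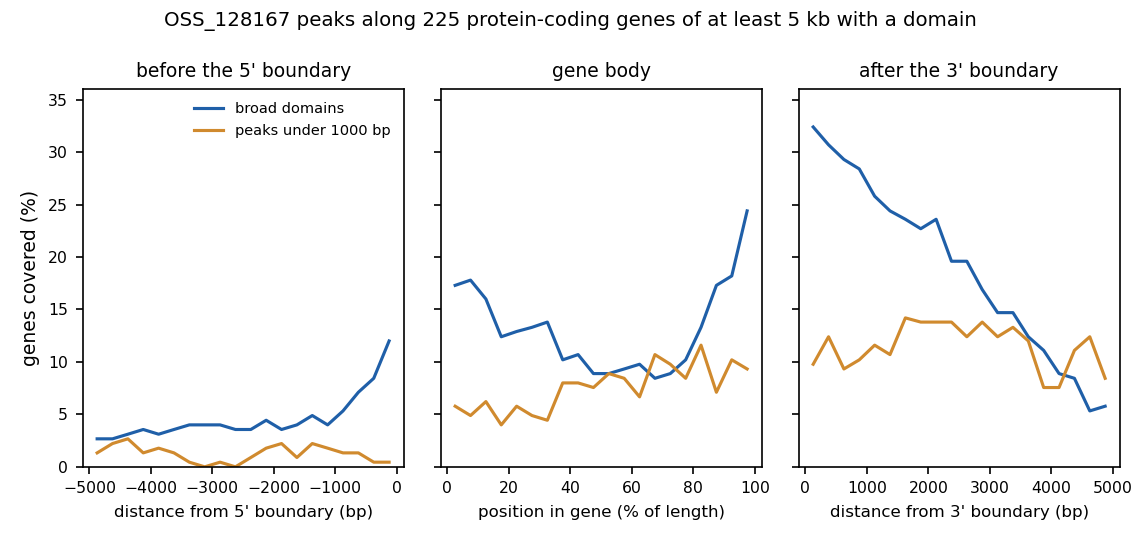
Percentage of 225 protein-coding genes (y axis), all 5000 bp or longer, of known strand and with a domain, that were covered at each position before the 5′ boundary (bp), along the gene (% of its length) and after the 3′ boundary (bp). The line for broad domains stands at 12% just before the gene, 17.3% in the first 5% of its length and 24.4% in the last, and peaks at 32.4% just after the 3′ boundary; peaks under 1000 bp stay at or below 14.2%.

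Along 225 genes of at least 5000 bp, cover by domains was 12% at 125 bp before the 5′ boundary and 17.3% in the first 5% of its length. It lay between 8.44 and 10.7% over the middle, then reached 24.4% in the last 5% and 32.4% at 125 bp past the 3′ boundary. At 4875 bp downstream it was 5.78%, and at 4875 bp upstream 2.67%. The same genes were chosen for having a domain, so the level reflects that choice and the shape along the gene is what the values describe.

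Single genes show the range in both directions. The longest spill into sequence outside other genes was 6010 bp, past the 3′ boundary of H2ac19 across and beyond H3c15. Vmp1 had 5810 bp, Actg1 5801 bp and Atic 5662 bp downstream. The domain concerned covered 2.14% of Vmp1, 100% of Actg1 and 0.0674% of Atic. The Atic domain lies in the space between Atic and Fn1, so it cannot be assigned to Atic alone. H3c3 and H1f2, which face each other, shared a domain that ran 6341 bp past H3c3 and 5932 bp past H1f2, or 5616 and 5510 bp without the neighbour itself. H3c15 followed with 5359 bp, H3f3b with 4834 bp, Rps12 with 4799 bp and Srsf3 with 4717 bp, all downstream. Marcks with 4853 bp and Ier2 with 4812 bp spilled past their lower-coordinate boundary, and the table gives no strand for either. Malat1 spilled over 4454 bp downstream, Vim over 4453 bp and Ccn1 over 4159 bp. Fos had 2950 bp past its 3′ boundary and 123 bp before its start, Junb 2993 and 93 bp, Id3 2541 and 146 bp, Btg1 2105 and 83 bp, and Col1a2 2869 and 39 bp, all 5 from genes shown above for their short upstream edge. Long upstream spills were fewer, with 4 of at least 3000 bp against 29 downstream. The longest was 10133 bp upstream of Fbxl18, in the domain over Gm38733 and Actb. The other 3 were H3c4 with 4509 bp, H2bc7 with 3544 bp and H2ac7 with 3127 bp, in 1 histone domain that covers neighbouring genes. Agbl3 followed with 2544 bp upstream, in a domain that covers 1.34% of it. That domain comes directly after a gene-less domain 541 bp downstream of Cald1, so it cannot be assigned to Agbl3 alone.

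A domain can cover neighbouring genes as well. Exactly 2 protein-coding genes lay under 57 domains. They comprised 15 convergent, 13 tandem and 3 divergent pairs, 18 overlapping pairs and 8 in which a strand is not in the table. All 3 divergent pairs were an H2A and an H2B gene (H2ac15 with H2bc15, H2ac22 with H2bc22, H2ac11 with H2bc11). Convergent pairs included Prdx2 with Junb, Gys1 with Ftl1 and Nfe2l3 with Hnrnpa2b1. ChIP-seq does not record the strand of the polymerase, so under such a domain the share of each gene cannot be told apart.

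Domains without a gene lay mostly behind one. Of 189 such domains, 176 were within 20000 bp of a protein-coding boundary, at a median distance of 1854 bp. The strand of the nearest gene was known for 123 of these, and 116 (94.3%, interval 88.6 to 97.7%) lay downstream of it and 7 upstream. Over all distances 117 of 136 (86.0%) lay downstream and 19 upstream, and 12 of those 19 were over 20000 bp away. For 59 of the 189, the nearest protein-coding gene itself lay under another domain. The longest with no gene within 1000 bp were 3621 bp beside Cemip2, 3425 bp in the let-7 stretch below, 3271 bp downstream of Fgfr2, 3178 bp downstream of Zswim4 and upstream of Mir23a, 2708 bp downstream of Zfp36l1, 2641 bp downstream of Rnd3, 2608 bp beside S1pr1, 2516 bp downstream of Brd2, 2356 bp downstream of Hnrnpf, 2321 bp downstream of Tab2, 2269 bp beside Col12a1 and 2181 bp downstream of Eif5. Closer in, a domain of 3399 bp lay 165 bp from Myc, one of 3251 bp 991 bp from Scd2 and one of 2896 bp 300 bp from Rpl3.

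The let-7 stretch was the main exception. Of 13 gene-less domains over 20000 bp from a protein-coding gene, 8 lay in 1 stretch of chromosome 15, chr15:85677927-85710997. It is 33071 bp long and holds 11 domains that cover 69.4% of it, with all 19 OSS_128167 peaks covering 80.9%. The domains are 1325 to 4391 bp long with folds of 3.01 to 6.75, and the last 3 cover 82.6% of Lncppara. The 4391 bp domain at the end also covers Mirlet7c-2 (95.8%) and Mirlet7b (100%), the hairpins of the let-7 sequences shown above, and 69.3% of Gm34622. The untreated list has 0 peaks in the stretch. With 25.1 untreated peak centres per Mb over all domains, 0 is near the background for the 22959 bp of domains here. At the other microRNA locus, the 7945 bp domain over the 3′ end of Vmp1 holds the whole Mir21a hairpin with a fold of 7.61, and 5810 bp of it lie past the annotated end of Vmp1. Mir6935 inside Actg1 (fold 11.3), Mir1894 (fold 6.67), Mir5136 (fold 4.14), Mir3109 (fold 4.21), Mir7091 (fold 5.88) and Mir145a in Carmn (fold 5.11) were also covered whole.

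Untreated peaks were found inside few domains. Of the 741, 24 (3.24%, interval 2.09 to 4.78%) met at least 1 of the 1615 untreated peaks, whereas 60 of the 39915 shorter OSS_128167 peaks did (0.150%). Over OSS_128167 peaks of any length the share was 0.207%. Length alone makes such a meeting more likely, so densities were compared as well: 25.1 untreated peak centres per Mb of domain (interval 17.8 to 34.5), against 4.05 per Mb of shorter peaks (3.02 to 5.33). By length class, 0.275% of domains of 1000 to 1499 bp held an untreated peak, 1.81% of 1500 to 1999 bp, 1.65% of 2000 to 2999 bp, 13.0% of 3000 to 4999 bp and 30.6% of 5000 bp and more. Even among those 36 longest domains, 25 held none. Domains with an untreated peak had a median length of 4584 bp and a median fold of 8.30, and those without 1485 bp and 4.25.

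**Figure D5:**
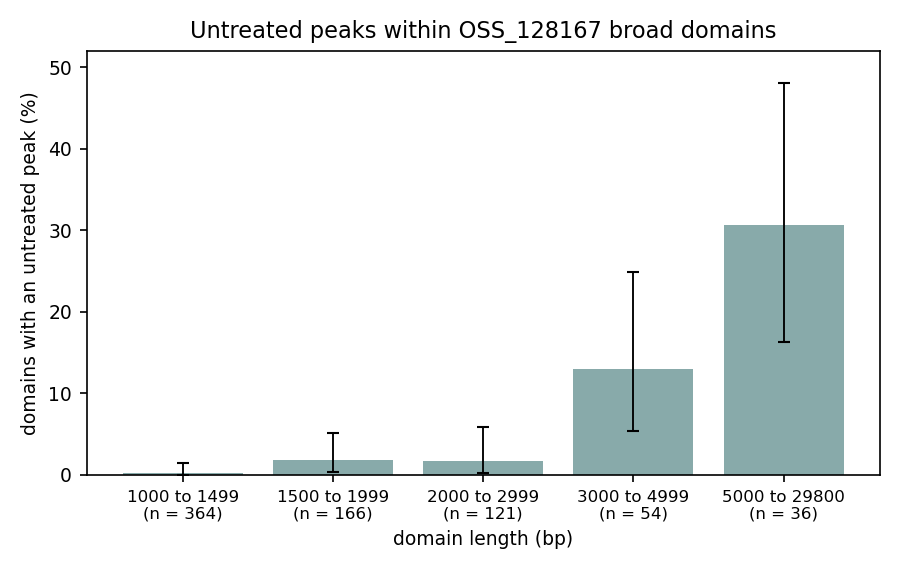
Share of broad OSS_128167 domains that an untreated peak overlaps by at least 1 bp (y axis, %) in 5 classes of domain length (x axis, bp), with exact 95% intervals for counting. The share is 0.275% in the shortest class (n = 364) and 30.6% in the longest (n = 36).

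The untreated peaks concerned were far shorter than the domains around them, but not small within their own list. There were 39, 2.41% of the untreated list on these chromosomes, and 38 lay wholly inside a domain. They were 204 to 984 bp long and covered 14608 bp or 0.965% of domain sequence. Their median length was 333 bp and their median pileup 8.15, against 247 bp and 5.98 in the other 1576 untreated peaks, and their median fold was 3.21 against 3.26. An FDR of at most 0.05 was listed for 0 of the 39 and for 6.47% of the others, and an FDR of 1.00 for 34 (87.2%) against 81.9%, so high FDR values were usual throughout the untreated list. Of 1615 untreated peaks 4 reached 1000 bp, at 4930467E23Rik (a pair), 6820431F20Rik and Slc30a4, and 0 of these met a broad domain. As 2.41% of all untreated peaks met a domain, 0 of 4 is near that share. It says nothing about a difference between the lists. Folds and pileups of the 2 lists are not on a shared scale, the lists differ in size, and whether depth or the caller's settings differed between the libraries is not known, so treatment and library cannot be told apart.

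Col1a2 held the most untreated peaks, 5 in its 29800 bp domain and 1 in the 3191 bp domain at its start. Together they covered 8.46% of the gene, against 97.4% under OSS_128167 domains. Col1a1, of nearly equal cover in the OSS_128167 list, had 0 untreated peaks. That was common among long domains, since 25 of the 36 of at least 5000 bp held none. Ccn1 had 4 untreated peaks in its 7257 bp domain, 3 of them past the 3′ boundary of the gene. H3f3b had 3, all past its 3′ boundary, with the lowest FDR of the 39, 0.0536. Ier2 had 2, both past its lower-coordinate boundary, where its spill lay. In all, 14 of the 39 (35.9%) touched no gene, and 1 of these lay in the gene-less domain beside Cemip2. Outside genes lay 25.8% of the base pairs of the 24 domains concerned and 35.6% of those of all domains, so the share reads as no more than near the background.

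The other domains with an untreated peak were of several kinds. Long non-coding RNA domains were Mir100hg with 3, Neat1 with 2, both domains over Gas5 with 1 each, and Snhg1 with 1 in its overhang. Histone domains were H3c13 with H2bc18, with 2, and H4c4 with H2bc6, with 1. The snRNA genes Rnu1a1 (untreated FDR 0.0736) and Gm22513 (untreated FDR 0.395) lay under an untreated peak themselves. Nfe2l3 with Hnrnpa2b1 had 2, and Fn1, Btg1, Dnm3 with Dnm3os, Copg2, Agbl3, Nudt4 and 1700001P01Rik had 1 each, as did the gene-less domain beside Cemip2. Counted by gene, 22 of the 393 protein-coding genes with a domain (5.60%) had an untreated peak anywhere in the gene, against 454 of the 21238 without a domain (2.14%) and 2.20% of all.

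Domains were not spread evenly. Chromosome 11 had the most, 72, and 3.05% of its peaks were broad, but chromosomes 13 (5.98%) and 19 (3.19%) had larger shares. Per 1000 protein-coding genes, chromosome 11 had 44.7 domains, against 56.0 on chromosome 6 and 3.11 on X. X had 3 (0.533%) and chromosome 12 had 10 (0.560%). Of 721 pairs of neighbouring domains on a chromosome, 146 were within 1000 bp of each other and 278 within 10000 bp, as on Fgfr2. Part of the list may be longer intervals broken by short gaps, but whether signal continues across the gaps was not tested. At the length limit itself, the nearest peaks inside were 1000 bp in Slc6a6 (fold 3.42), 1001 bp in Isy1 (fold 4.41), a pair of 1001 bp without a gene (folds 4.02 and 3.54) and 1002 bp without a gene (fold 3.13). Just outside were 998 bp in Gm49890 (fold 3.61), 998 bp without a gene (fold 5.16), 996 bp without a gene (fold 3.49), 995 bp in Nexn (fold 4.83) and 994 bp without a gene (fold 4.67). The limit is a round number and falls in a continuous range of lengths and folds.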

How the data were processed

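Per the submitters' processing notes, reads were handled with fastp and BWA and the build is mm10. The peak caller, its thresholds and the part played by the inputs are not stated in any label or header. Per the file headers, each deposited list gives for every peak its position, length, fold enrichment (a ratio), p-value, FDR and pileup (a signal height). Each list belongs to 1 library.

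Peaks on chromosomes 1 to 19 and X were set against a RefSeq gene table of GRCm38.p6. Overlap meant at least 1 bp. Strand came from RefSeq promoter and microRNA tables. The sequences shown and searched for motifs came from the same tables, and no whole-genome sequence was used. Spill is the length of a domain past a gene boundary. Shares have exact (Clopper-Pearson) 95% intervals that cover counting only. With 1 library per condition no test was run. Interval counts were tested on simulated data and found 200 of 200 planted genes. Versions were scipy 1.17.1, pandas 2.3.3, numpy 2.4.6 and matplotlib 3.10.9 under Python 3.11.15.

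The members and the 27 gene lists were chosen with earlier results of these data known. Genes named are those of the 15 longest and 15 highest-fold domains, all domains with an untreated peak, up to 6 members per list, 12 genes of at least 5000 bp by share covered, up to 4 per non-coding biotype, and the 12 longest spills and gene-less domains. A few others, such as Fgfr2, Jun and the let-7 stretch, were named after their values were seen. Some items that this rule names are not reported here.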

Additional observations from a re-analysis of the deposited data

How the results depend on the processing

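The count of domains depends on the length limit by construction. With at least 500 bp there were 3645 domains on 1377 protein-coding genes, 9.37% of those genes were covered over at least 50%, 9.63% of domains spilled past genes and 0.933% held an untreated peak. With at least 2000 bp the values were 211 domains, 174 genes, 39.7%, 48.3% and 9.48%. With an FDR of at most 1e-05 they were 277 domains, 195 genes, 40.5%, 43.3% and 7.58%. In 15 of 35 alternatives, among them all 6 at an FDR of at most 0.05, a value stayed near that reported (a count within 1.5 times, a share within its counting interval). When untreated peaks also had to have an FDR of at most 0.05, the share with an untreated peak was 0%. Counting all OSS_128167 peaks put 33.3% of the same genes at 50% cover or more. Joining peaks over gaps of at most 1000 bp gave 2072 domains and 17.2%. Without the histone list, 95% of genes with both ends covered had the longer spill downstream, and this alternative was chosen after seeing the data. The number of listed genes met ranged from 91 to 179, against 132 as reported. No paired analysis was possible because each condition has 1 Pol II library and no test was run.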
